A study of Mus musculus with 18 samples.

Results

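Ovaries of wild-type mice were compared between 5 and 2 months of age in each of 2 strains, CF-1 and the CF-1xC57BL/6 hybrid (CF/B6 in some labels). The arrays were chosen by genotype and age alone: CF-1 wild type at 2 months, CF-1 wild type at 5 months, hybrid wild type at 2 months and hybrid wild type at 5 months. Each of these 4 conditions, of 9 in the series, was hybridised to 1 array of chip type A and 1 of chip type B, which gives 8 of the 18 arrays. The other arrays hold ovaries of transgenic mice that hypersecrete luteinizing hormone (LHCTP), one condition of them treated with hCG, and were used only to scale the chips, to place the wild-type arrays among the rest and in an alternative fit. None of the wild-type groups is labelled as treated. The labels name no second animal, no pooling and no stage of the oestrous cycle. CF-1 is an outbred stock, and the hybrid carries C57BL/6 chromosomes beside those of CF-1.

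The ovary holds follicles, in which an oocyte grows inside granulosa and theca cells, and corpora lutea, which form from ovulated follicles and make progesterone. Both come and go with every cycle, and macrophages enter regressing follicles and corpora lutea. A whole ovary also carries stroma, vessels, surface epithelium and often pieces of oviduct, bursa and fat. In such bulk RNA, fewer cells of a type and less RNA per cell cannot be told apart.

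Values are scaled intensities in arbitrary units, 1 per probe set and array, and levels are compared only within a probe set. A log2 difference is that of 5 over 2 months after values under a floor of 183.8 units (chip A) or 290.7 units (chip B) were raised to it. The detection limit was 2 floors. Of the probe sets, 5798 reached it on at least 2 of the 4 wild-type arrays of their chip type and were tested, 4230 of them with 1 gene symbol, for 3628 genes. With 1 array per strain, age and chip, a difference within a strain has no replicate and no test, and the only spread is that between the differences of the strains. On both chip types the CF-1 array at 5 months stood apart. Its correlation with the other wild-type arrays over tested probe sets ran from 0.888 to 0.91 for chip A and from 0.888 to 0.905 for chip B, against 0.94 to 0.95 and 0.93 to 0.95 among the other 3. Every CF-1 difference below rests on that array. The hybrid array at 5 months had the lowest ratio of the 3' to the 5' beta-actin control, 1.5 on chip A and 1.75 on chip B, where the other wild-type arrays had 2.5 to 2.97. Its part in the hybrid differences was not tested. Over the 15 opposite-strand control probe sets of chip A, the 2-month arrays correlated at 0.93 and the 5-month arrays at 0.87. Pairs of unlike age on chip A had 0.56 to 0.73. On chip B the same-age pairs had 0.73 and 0.77, and pairs of unlike age 0.68 to 0.83. What these controls share by age on chip A cannot be told apart from age and was not tested.

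The ovary at 5 months differed from that at 2 months mostly in one strain at a time. In CF-1, 302 probe sets (5.21%) were higher and 353 (6.09%) lower at 5 months by at least 2-fold. In the hybrid, 179 (3.09%) were at least 2-fold higher and 131 (2.26%) lower. A difference of 3-fold or more was seen for 143 probe sets (2.47%) in CF-1, 79 higher and 64 lower, and for 61 (1.05%) in the hybrid, 26 higher and 35 lower. The median over all tested probe sets was -0.05 in CF-1 and 0.02 in the hybrid on the log2 scale, and the SD over probe sets was 0.64 and 0.48. At 5 months 46.1% of tested probe sets were higher in CF-1 and 52.4% in the hybrid. These shares, and those at 2-fold, are the background for the counts of list members below.

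The strains shared a small part of this. Of the CF-1 probe sets past 3-fold, 23 (16.1%) were at least 2-fold apart the same way in the hybrid. Of the hybrid's, 9 (14.8%) were so in CF-1. Over all tested probe sets, 3.09% were at least 2-fold higher and 2.26% lower in the hybrid, and 5.21% and 6.09% in CF-1. Both overlaps lay above these shares. A total of 5 were past 3-fold the same way in both. Over probe sets, which are not independent, the Pearson correlation of the differences in the 2 strains was 0.15 on chip A and 0.12 on chip B, and 55.5% and 51.9% of probe sets had the same sign in both. For 159 genes measured on both chip types, the difference correlated between the chips at 0.39 in CF-1 and 0.22 in the hybrid, and the SD of the gap between the chips was 0.69 and 0.56 on the log2 scale. The same condition read by other probes on the other chip type thus gave gaps of the size of a typical difference. The labels do not say whether both chips received the same RNA.

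Fitting age with strain as a block in limma, 0 of 5798 probe sets (0%) passed an adjusted p of 0.05, and the lowest adjusted p was 0.403. At an unadjusted p under 0.05, limma gave 415 probe sets (7.16%), 243 higher and 172 lower at 5 months, where 290 would fall by the threshold alone. This fit leaves 1 residual degree of freedom per probe set, with no repeat of any condition. Its spread comes from how unlike the 2 strains were and is moderated, that is drawn toward the spread over all tested probe sets of the chip type. That common spread weighs as 5.49 degrees of freedom on chip A and 5.4 on chip B. A standard error below therefore mostly reflects it, and not the gap between the strains for that gene. The genes below are therefore described by their values in each array, as higher or lower in these samples.

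**Figure D1:**
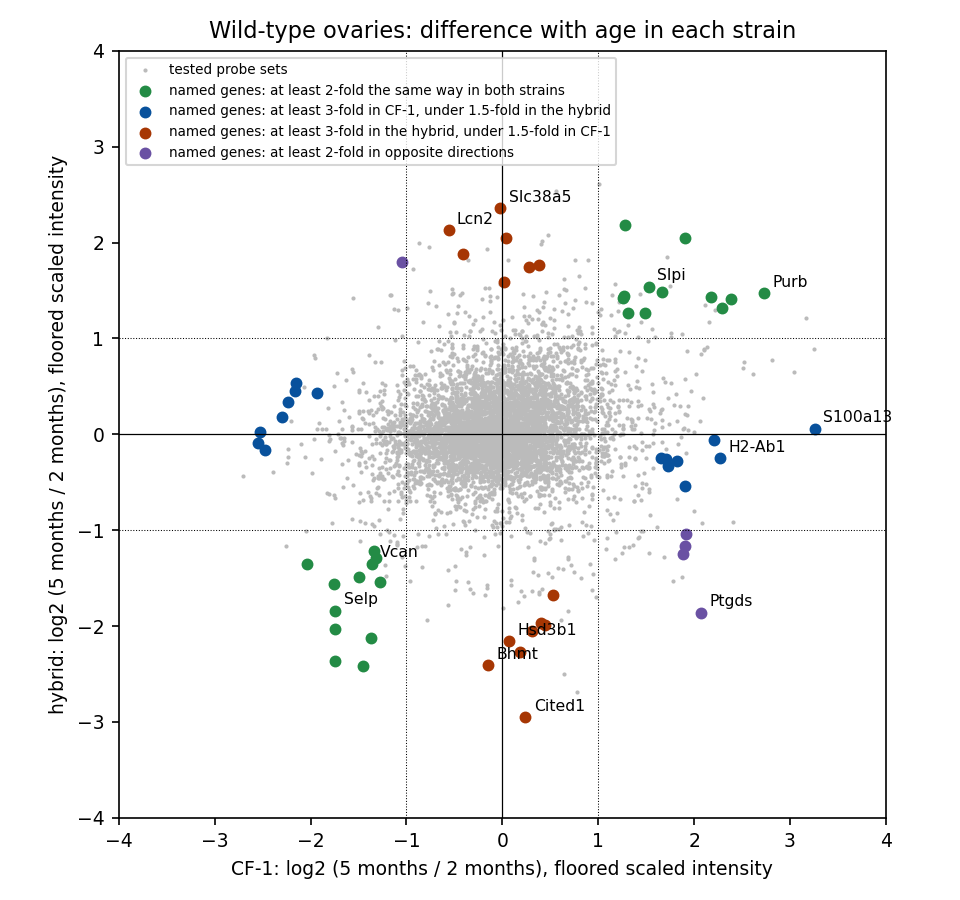
Each grey point is 1 of the 5798 tested probe sets, with the log2 difference of 5 over 2 months in CF-1 on the x axis and in the hybrid on the y axis; colours mark the named genes of the 4 patterns and dotted lines mark 2-fold. The cloud is wider along the CF-1 axis (SD 0.64) than along the hybrid axis (SD 0.48), and the named genes of one strain lie along the axes.

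Genes at least 2-fold higher at 5 months in both strains came from 41 probe sets (0.707%), 29 of them with 1 gene symbol. Anpep, which encodes the cell surface peptidase aminopeptidase N, was near background at 2 months in both strains: it read 79 units at 2 months and 691 at 5 months in CF-1, and 200 and 825 in the hybrid. Slpi, a secreted protease inhibitor of mucosal epithelia and phagocytes, read 75 and 531 units in CF-1 and -83 and 535 in the hybrid. Both were at or near the floor at 2 months and above it at 5 months in both strains, and the ages did not overlap. A second Slpi probe set and one for Slc6a12 were under the floor on all 4 arrays. The log2 difference of Anpep averaged 1.98 with a moderated standard error of 0.27 (limma, n = 2 strains), at an adjusted p of 0.403.

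Slc6a12, a betaine and GABA transporter, read 461 and 1461 units in CF-1 and 519 and 1453 in the hybrid, close to the same levels at each age. Slc27a1, a fatty acid transporter, went from 289 to 1417 units in CF-1 and from 440 to 1102 in the hybrid on chip B. A probe set for it on chip A lay on the same side in both strains, with 1198 and 2337 units in CF-1 and 1215 and 1683 in the hybrid. Cyp2e1, a cytochrome P450 that oxidises ethanol and small solvents, stood at 54 and 832 units in CF-1 and at 490 and 1319 in the hybrid.

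Clec4a1, a C-type lectin of myeloid cells, read 336 and 1769 units in CF-1 and 449 and 1197 in the hybrid. Purb, a nucleic acid binding protein, read 328 and 2170 units in CF-1 and 1206 and 3344 in the hybrid, which at 2 months already stood above the CF-1 level of the same age. Cdk5, a kinase best known from neurons, read 587 and 1423 units in CF-1 and 225 and 1016 in the hybrid. Xist, the RNA that silences an X chromosome in female cells, read 317 and 761 units in CF-1 and 563 and 1506 in the hybrid. Aph1a (a gamma-secretase subunit), Pak3 (a kinase) and Cdx2 (a homeobox factor) had log2 differences of 1.31, 1.27 and 1.49 in CF-1 and of 1.27, 1.44 and 1.26 in the hybrid. For 6 of the 12 genes at least one of the 2-month arrays was under the floor, and the fold is then a lower bound: at least 3.76-fold for Anpep in CF-1, and at least 2.89-fold in CF-1 and 2.91-fold in the hybrid for Slpi.

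Genes at least 2-fold lower at 5 months in both strains came from 27 probe sets (0.466%), 23 with 1 gene symbol. Selp and Procr, of the vessel wall, and Vcan, of the matrix, were among them. A list of endothelial genes, 8 of them measured, had median log2 differences of 0.26 in CF-1 and 0.11 in the hybrid. Selp, which encodes P-selectin, an adhesion receptor of activated endothelium and platelets, read 2045 and 614 units in CF-1 and 3059 and 853 in the hybrid. Procr, the endothelial receptor of protein C, read 1032 and 400 units in CF-1 and 812 and 186 in the hybrid. Vcan, versican, a proteoglycan of the matrix that forms around the cumulus and follicle at ovulation, read 1521 and 592 units in CF-1 and 3932 and 1543 in the hybrid. The hybrid level of Vcan at 5 months was that of CF-1 at 2 months, so the ages overlap across strains and separate within each. A further Vcan probe set read 249 and -56 units in CF-1 and 201 and 137 in the hybrid. Another read 136 and 13 units in CF-1 and 454 and 120 in the hybrid. Both were too low to be tested. The log2 difference averaged -1.79 for Selp and -1.35 for Vcan, each with a moderated standard error of 0.27, at an adjusted p of 0.403 (limma).

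Wfdc18, a small secreted protein of the whey acidic family, read 2746 and 972 units in CF-1 and 3466 and 1234 in the hybrid, and a second probe set for it gave 2807 and 1625 units in CF-1 and 3716 and 965 in the hybrid. Calb1, a calcium-binding protein, read 791 and 192 units in CF-1 and 1552 and 608 in the hybrid. Hdc, the enzyme that makes histamine, read 794 and 104 units in CF-1 and 1552 and 164 in the hybrid, under the floor at 5 months in both. Its fold is at least 2.73 in CF-1 and at least 5.34 in the hybrid. The mast cell proteases Tpsb2 and Tpsab1 did not go with it, with log2 differences of 0.26 and 0.55 in CF-1 and 0.15 and 0.29 in the hybrid.

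The remaining named genes were Nipsnap2, a mitochondrial protein, with 2472 and 736 units in CF-1 and 748 and 93 in the hybrid, and Apoa4, an apolipoprotein, with 867 and 347 units in CF-1 and 628 and 258 in the hybrid. Alg3 (a mannosyltransferase), Speg (a muscle kinase), Ppp5c (a phosphatase) and Cry1 (a clock repressor) had log2 differences from -1.28 to -1.76 in CF-1 and from -1.22 to -2.36 in the hybrid. For Alg3, Ppp5c and Cry1 a second tested probe set did not show this: that of Alg3 had 0.08 and 0.16, that of Ppp5c 0.38 and -0.10, and that of Cry1 0.48 and -0.46 on the log2 scale in CF-1 and the hybrid. Further probe sets for Speg and Apoa4 were too low to be tested. That of Speg read 164 and 192 units in CF-1 and 107 and 108 in the hybrid. That of Apoa4 was under the floor on every wild-type array. In all, 5 of the 24 genes named for both strains had another tested probe set, and for 2 of them, Slc27a1 and Wfdc18, it lay on the same side in both strains. With the floor doubled, 18 higher and 7 lower probe sets were left of the 41 and 27, so most of them have a reading near the floor.

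**Figure D2:**
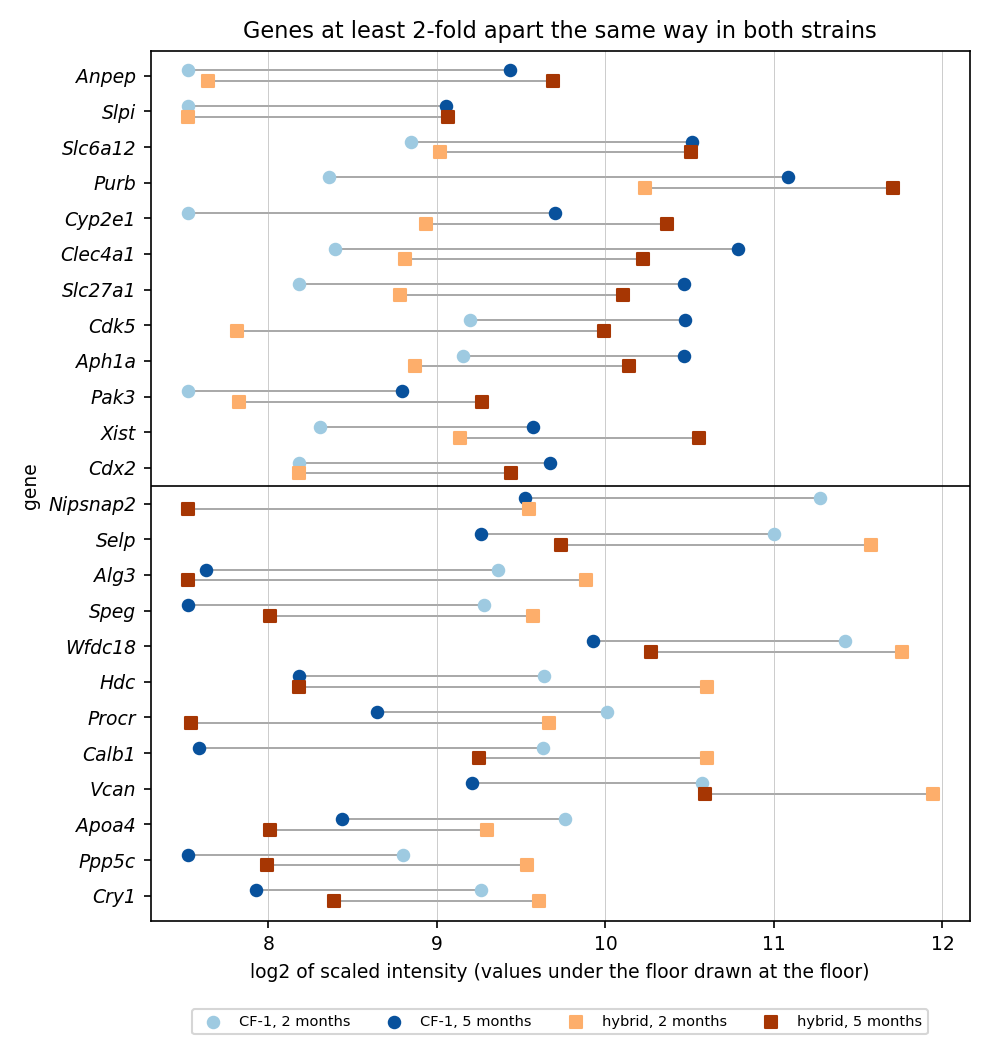
Each row is 1 of the 24 genes named for both strains, with the log2 scaled intensity of the 4 wild-type arrays (circles CF-1, squares hybrid, pale 2 months, dark 5 months) and a line joining the ages of a strain; values under the floor are drawn at it. In the upper 12 genes both dark points lie to the right of the pale ones of their strain, in the lower 12 to the left, and 11 of the 24 genes have an array under the floor on one side.

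In CF-1, genes of macrophages and of antigen presentation stood higher at 5 months. All 20 measured genes of a list of 31 were higher in CF-1 at 5 months, 12 of them at least 2-fold, where 5.21% of all tested probe sets were. Their median log2 difference was 1.47 in CF-1 and 0.06 in the hybrid, beside -0.05 and 0.02 over all tested probe sets. In the hybrid 12 of the 20 were higher and 8 lower, none 2-fold either way, over a range from -0.57 to 0.78. With no filter on low values the CF-1 median was 0.96. The CF-1 array at 5 months was the highest of all 9 arrays of its chip, transgenic ones included, for 17 of the 20 genes, where it was highest for 9.14% of all tested probe sets. Of the 363 measured genes of all 30 lists, 0 passed limma's threshold for age, and for the macrophage list the difference between the strains was not tested, as there is 1 array per strain and age.

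Class II antigen presentation shows the pattern. H2-Ab1, the beta chain of the I-A class II molecule, read 1076 and 5179 units in CF-1 and 936 and 787 in the hybrid. H2-Eb1, the beta chain of I-E, read 1234 and 3887 units in CF-1 and 2054 and 2281 in the hybrid. H2-Aa, the I-A alpha chain, read 4214 and 9850 units in CF-1 and 6136 and 6088 in the hybrid, and 4 further probe sets for it, on both chip types, had log2 differences of 1.32 to 1.90 in CF-1 and of -0.13 to 0.21 in the hybrid. Cd74, the invariant chain that escorts class II molecules, read 7022 and 12507 units in CF-1 and 6693 and 5895 in the hybrid. A second H2-Eb1 probe set was higher in CF-1 by only 0.32.

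Lysosomal and complement genes of macrophages went the same way. Ctss, the protease cathepsin S that trims the invariant chain, read 1373 and 9627 units in CF-1, a 7.01-fold difference, and 1818 and 3128 in the hybrid, 1.72-fold. Lyz2, lysozyme of myeloid cells, read 8991 and 33432 units in CF-1 and 11597 and 12158 in the hybrid. Cd68, a lysosomal membrane protein and common macrophage marker, read 731 and 2690 units in CF-1 and 923 and 958 in the hybrid. For all 3 the CF-1 ovary at 5 months was the one high sample of the 4. The C1q chains, the recognition part of complement made by tissue macrophages, had like differences: C1qa had a log2 difference of 1.66, C1qb 1.41 and C1qc 1.82 in CF-1, and 0.26, 0.29 and 0.14 in the hybrid. Mpeg1, a pore-forming protein of phagocytes, read 827 and 3174 units in CF-1 and 880 and 906 in the hybrid. Of the 7 further tested probe sets for genes of the list, 7 were higher in CF-1 and 6 at least 2-fold.

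Members with smaller differences in CF-1 were the receptor Cd14 (0.41), the lectin Lgals3 (0.56), the leukocyte phosphatase Ptprc (0.57) and the protease Ctsd (0.32). Lgals3 is the member with the same size of difference in both strains, with 7471 and 11025 units in CF-1 and 3940 and 5874 in the hybrid. Plasma cell and B cell genes (8 measured of 22) had medians of 0.27 and 0.39, with 1 member at least 2-fold higher in CF-1, the immunoglobulin heavy chain Ighm. Of the T cell and NK cell list only Cd3e was measured, with 584 and 622 units in CF-1 and 646 and 581 in the hybrid. The interferon response list (13 measured of 30) had medians of 0.39 and -0.12. Of its class I genes, H2-D1 read 7453 and 19304 units in CF-1 and 5961 and 5490 in the hybrid. H2-K1 and B2m had log2 differences of 0.29 and 0.24 in CF-1. A second H2-K1 probe set had 1.5 in CF-1 and -0.52 in the hybrid, with 2875 and 8159 units and 2059 and 1434 units.

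The starts of H2-Aa and H2-Eb1, class II genes on chromosome 17 whose levels differed together in CF-1, are shown because their class II promoters are known to carry a Y box, the site of the factor NF-Y with the core CCAAT. The 250 bases before the transcription start are given 5′ to 3′ on the gene's strand, from RefSeq on build GRCm38.p6, for H2-Aa from chr17:34287824-34288073 (minus strand) and for H2-Eb1 from chr17:34305617-34305866 (plus strand). Capitals mark each CCAAT, or ATTGG for the other strand.
H2-Aa: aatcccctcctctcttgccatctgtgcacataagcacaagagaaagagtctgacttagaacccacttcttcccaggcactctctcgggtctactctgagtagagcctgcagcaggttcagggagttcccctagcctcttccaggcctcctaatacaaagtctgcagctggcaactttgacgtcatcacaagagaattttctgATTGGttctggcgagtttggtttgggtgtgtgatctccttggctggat
H2-Eb1: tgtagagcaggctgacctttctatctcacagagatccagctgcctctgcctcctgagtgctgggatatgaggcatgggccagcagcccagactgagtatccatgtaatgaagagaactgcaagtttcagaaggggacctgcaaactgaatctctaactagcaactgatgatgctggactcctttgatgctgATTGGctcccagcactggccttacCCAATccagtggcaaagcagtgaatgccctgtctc
H2-Aa holds 1 match and H2-Eb1 holds 2. Of the 20 measured genes of the list, 15 have an upstream sequence in the table and 6 of these hold the letters, while 33.8% of the 32851 upstream sequences of that length do. A match is a description of the letters and not a measured site.

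Adipocyte genes were also higher in CF-1 at 5 months. Of 9 measured genes of a list of 18, 8 were higher in CF-1 and 6 at least 2-fold (5.21% of all tested probe sets were), with a median of 1.11. In the hybrid 7 were higher and 2 lower, with a median of 0.16. Fabp4, a fatty acid carrier of fat cells and macrophages, read 418 and 1755 units in CF-1 and 1315 and 2349 in the hybrid. Adipoq, the fat hormone adiponectin, read 613 and 2037 units in CF-1 and 1656 and 2156 in the hybrid. Scd1, a desaturase of fatty acids, read 1820 and 5205 units in CF-1 and 2485 and 4875 in the hybrid. For Fabp4 and Adipoq the CF-1 array at 2 months was the low one, and the other 3 lay closer together. Pparg, a nuclear receptor of fat cells, was the member lower in CF-1, with a log2 difference of -0.98. In the hybrid the lipase Lipe and the dehydrogenase Gpd1 were at least 2-fold lower, with 765 and 271 units and 1503 and 446 units. The summed intensity of the list ran from 9728 to 21331 units in CF-1 and from 14759 to 18252 in the hybrid, and no defining member was at 0. Its part in the macrophage values was not tested. The summed macrophage intensities were 58277 and 137460 units in CF-1 and 59423 and 62649 in the hybrid.

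**Figure D3:**
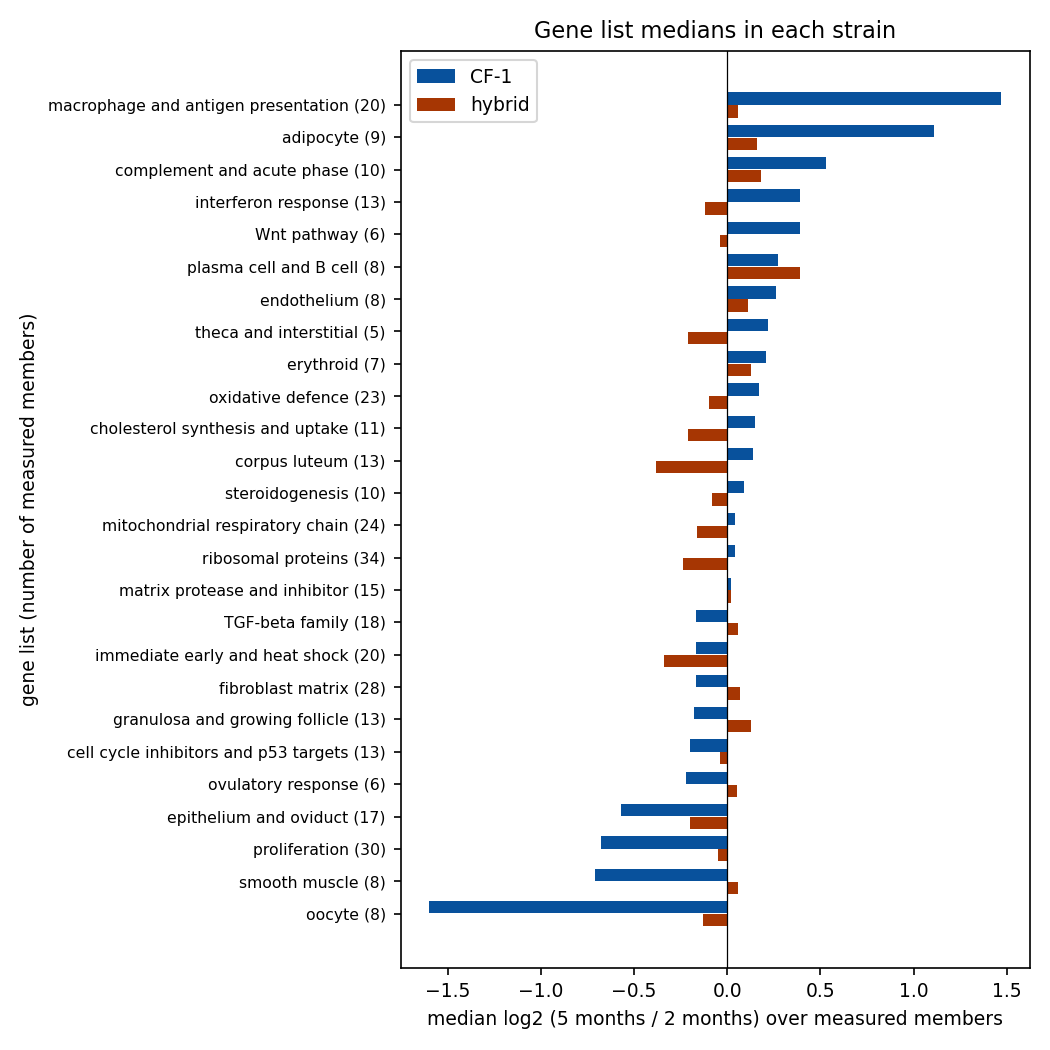
Bars give the median log2 difference of 5 over 2 months over the measured members of each gene list with at least 5 of them (number in brackets), blue for CF-1 and brown for the hybrid. The CF-1 bars run from -1.60 for oocyte to 1.47 for macrophage and antigen presentation genes, and the hybrid bars stay between -0.38 and 0.39.

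Oocyte genes were lower in CF-1 at 5 months. All 8 measured genes of a list of 25 were lower in CF-1, 6 of them at least 2-fold, where 6.09% of all tested probe sets were, with a median log2 difference of -1.60. In the hybrid 7 of the 8 were lower and none 2-fold, with a median of -0.13. The list's summed intensity was 17968 and 8038 units in CF-1 and 18730 and 16854 in the hybrid. With members detected on 1 of the 4 arrays added, the CF-1 median was -1.09, and with no filter on low values, which adds listed genes at the floor, -0.49. None of the 8 passed limma's threshold.

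The zona pellucida genes, which encode the glycoprotein coat of the growing oocyte, stood at like levels in 3 samples and low in the CF-1 ovary at 5 months. Zp2 read 2349 and 447 units in CF-1, a 5.26-fold difference, and 2595 and 1978 in the hybrid. Zp3 read 1706 and 398 units in CF-1 and 1786 and 1670 in the hybrid. Zp1 read 394 and 42 units in CF-1, at least 2.14-fold, and 447 and 418 in the hybrid. Among the other oocyte genes, Bcl2l10, a survival protein abundant in oocytes, read 2455 and 519 units in CF-1 and 2960 and 2514 in the hybrid. Tcl1, a kinase cofactor of oocytes and early embryos, read 868 and -463 units in CF-1, at least 4.72-fold, and 710 and 640 in the hybrid. Gdf9, the growth factor by which the oocyte acts on granulosa cells, read 3790 and 1782 units in CF-1 and 3494 and 3243 in the hybrid. Spin1 and Plat, which other ovarian cells also express, had log2 differences of -0.35 and -0.47 in CF-1.

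The CF-1 array at 5 months was the lowest of its 9 arrays for 2 of the 8 oocyte genes, where it was lowest for 10.7% of all tested probe sets. For the others a transgenic array read lower. Of 13 measured granulosa genes, 10 were lower in CF-1 with a median of -0.18, and 9 were higher in the hybrid with a median of 0.13. Kitl, the granulosa ligand of the oocyte receptor Kit, was the 1 member past 2-fold, with 774 and 350 units in CF-1 and 510 and 544 in the hybrid. Amh, a hormone of small growing follicles, read 1398 and 1157 units in CF-1 and 1444 and 1704 in the hybrid. Inhba, an activin and inhibin subunit, read 3480 and 3080 units in CF-1 and 3688 and 5891 in the hybrid.

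Zp3 and Tcl1 are shown as the oocyte genes past 2-fold in CF-1 with an entry in the RefSeq table. Zona genes are known to be switched on through an E-box, the letters CANNTG, bound by a dimer that holds the factor Figla. The 250 bases before the start on build GRCm38.p6 are given 5′ to 3′, for Zp3 from chr5:135979855-135980104 (plus strand) and for Tcl1 from chr12:105222738-105222987 (minus strand), with each CANNTG in capitals. The motif reads the same on both strands.
Zp3: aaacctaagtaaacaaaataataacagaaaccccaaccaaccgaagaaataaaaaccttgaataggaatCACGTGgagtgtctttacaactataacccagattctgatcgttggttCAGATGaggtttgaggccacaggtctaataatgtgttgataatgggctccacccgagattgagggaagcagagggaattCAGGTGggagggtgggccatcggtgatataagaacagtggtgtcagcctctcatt
Tcl1: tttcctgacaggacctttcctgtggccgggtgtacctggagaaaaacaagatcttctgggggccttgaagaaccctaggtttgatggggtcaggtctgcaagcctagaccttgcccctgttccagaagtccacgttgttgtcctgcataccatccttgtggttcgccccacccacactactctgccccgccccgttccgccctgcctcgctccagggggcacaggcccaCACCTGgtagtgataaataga
Zp3 holds 3 matches and Tcl1 holds 1. Of the 8 measured oocyte genes, 3 have an entry and all 3 hold a match, as do 66.2% of all 32851 upstream sequences of that length, so that the motif does not set them apart.

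**Figure D4:**
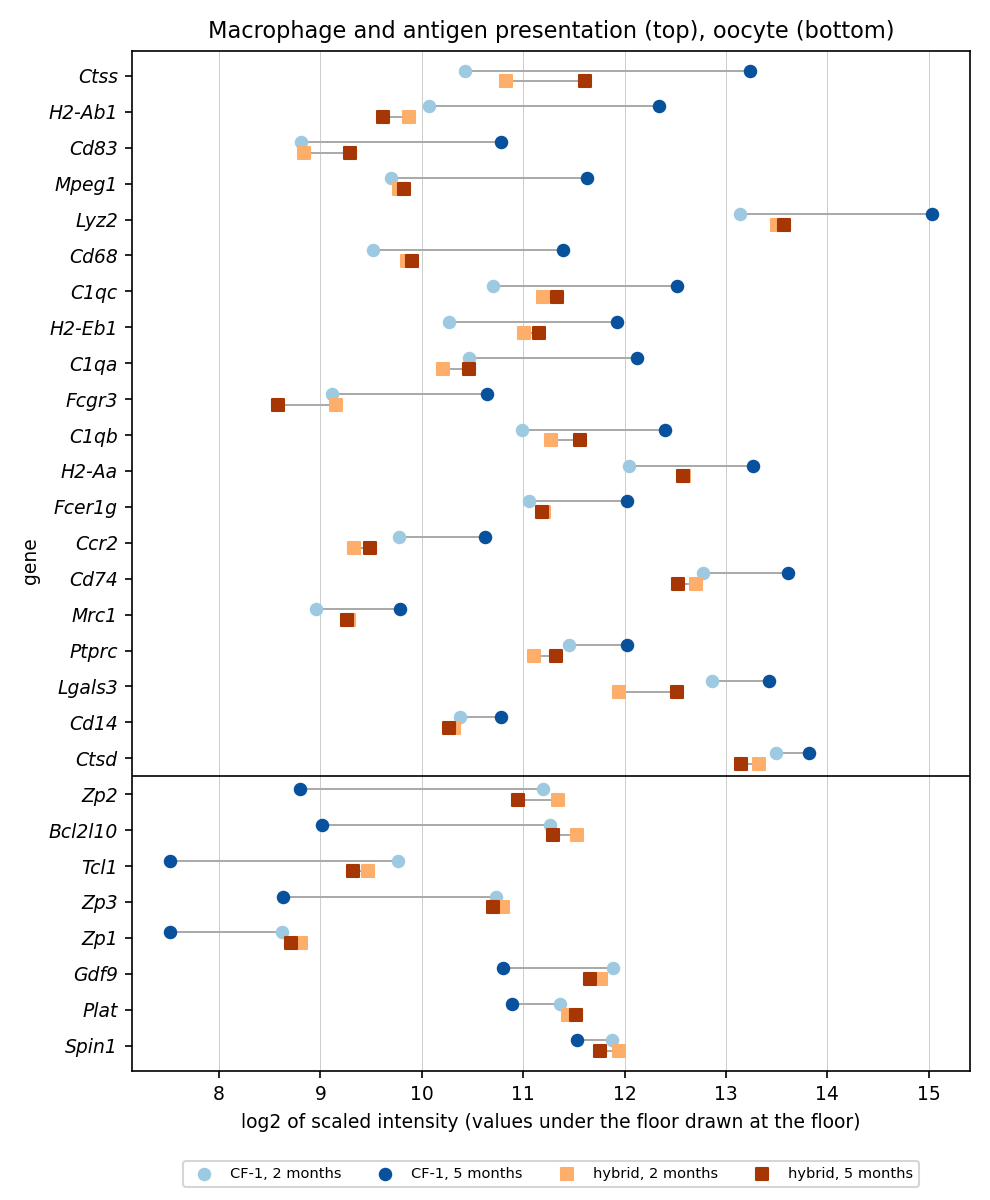
Each row is 1 measured gene of the macrophage and antigen presentation list (20, top) or of the oocyte list (8, bottom), with the log2 scaled intensity of the 4 wild-type arrays (circles CF-1, squares hybrid, pale 2 months, dark 5 months). The dark CF-1 circle lies to the right of the pale one in all 20 upper rows and to the left in all 8 lower rows. The hybrid differences run from -0.57 to 0.78 in the upper rows and from -0.39 to 0.07 in the lower. For Lgals3 the hybrid difference (0.58) is of the size of that in CF-1 (0.56).

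Genes of dividing cells were lower in CF-1 at 5 months. Of 30 measured genes of a list of 40, 26 were lower in CF-1 with a median of -0.68, and 9 at least 2-fold, where 6.09% of all tested probe sets were. In the hybrid 17 were lower with a median of -0.05, and 1, the ligase Lig1, was 2-fold lower. Mki67, the antigen of cycling nuclei, read 2395 and 1130 units in CF-1 and 2038 and 1937 in the hybrid. Mcm2, a subunit of the replication helicase, read 1847 and 786 units in CF-1 and 1440 and 1984 in the hybrid. Top2a, the topoisomerase of dividing cells, read 482 and 202 units in CF-1 and 484 and 697 in the hybrid. Stmn1, a microtubule regulator, read 1866 and 813 units in CF-1 and 1672 and 1720 in the hybrid. Prc1, a protein of the spindle midzone named by the one-strain rule, read 1015 and 99 units in CF-1 and 1016 and 908 in the hybrid. For these 5 genes the CF-1 ovary at 5 months was the low sample, and the other 3 lay closer together. Prc1 was picked by a rule that asks for a difference in CF-1 alone. The list members among the 5 were taken from the 9 at least 2-fold lower in CF-1. Members higher in CF-1 were Ccne1 (log2 difference 0.69), Hmgb2 (0.37), Kif20a (0.09) and Cdca3 (0.03). Of 5 further probe sets for genes of the list, 2 were higher in CF-1 and 3 lower.

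The smooth muscle list (8 measured of 16) had medians of -0.71 in CF-1 and 0.06 in the hybrid. In CF-1, 5 of the 8 were lower, 2 of them 2-fold (6.09% of all tested probe sets were). The 3 higher were the filament protein Des by 0.79, the receptor Pdgfrb by 0.45 and the tropomyosin Tpm1 by 0.06 on the log2 scale. Acta2, smooth muscle actin, read 22704 and 11105 units in CF-1 and 20303 and 20961 in the hybrid, and Mylk, the kinase of myosin light chain, 6636 and 2892 in CF-1 and 5318 and 5602 in the hybrid. The epithelium and oviduct list (17 measured of 26) had 16 members lower in CF-1, 5 of them 2-fold (6.09% of all tested probe sets were), with a median of -0.57, and 11 lower in the hybrid with a median of -0.20. Cdh1, E-cadherin, read 1572 and 693 units in CF-1 and 1827 and 1512 in the hybrid. Ovgp1, the secreted glycoprotein of the oviduct, read 19169 and 12352 units in CF-1 and 9338 and 14359 in the hybrid, bright in all 4 samples and opposite in direction between the strains. Upk3b, a gene of the mesothelial surface, was the exception in the list, with 1188 and 2627 units in CF-1 and 1578 and 1545 in the hybrid.

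The one-strain rule, at least 3-fold in CF-1 and under 1.5-fold in the hybrid, took 86 probe sets (1.48%), 38 higher and 48 lower at 5 months. In 72 of the 86 the CF-1 array at 5 months was farther from the hybrid mean than the CF-1 array at 2 months, and in 14 the latter was. Beside H2-Ab1, the named higher genes included Traf2, an adaptor of tumour necrosis factor receptors, with 1286 and 5942 units in CF-1 and 2210 and 2126 in the hybrid, and Pam, the enzyme that amidates peptide hormones, with 692 and 2597 units in CF-1 and 990 and 682 in the hybrid. S100a13, a calcium-binding protein, had the largest difference, with 247 and 2358 units in CF-1 and 398 and 416 in the hybrid. A second S100a13 probe set on chip B read 747 and 852 units in CF-1, a log2 difference of 0.19. Efhd2, Rundc3a, Guca2a and Oprd1 had CF-1 differences of 1.71, 1.82, 1.73 and 1.65, and a second probe set for Oprd1 had -1.02.

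Named genes lower in CF-1 alone by this rule included mitochondrial ones. Ndufa12, a subunit of respiratory complex I, read 1728 and 365 units in CF-1 and 2479 and 3145 in the hybrid. Uqcc1, an assembly factor of complex III, read 818 and 164 units in CF-1 and 568 and 825 in the hybrid. The respiratory chain list as a whole (24 measured of 46) had medians of 0.04 and -0.16 and 1 member 2-fold lower in CF-1. Acy1, an aminoacylase, read 906 and 114 units in CF-1 and 755 and 855 in the hybrid. Specc1 and Gon4l had CF-1 differences of -2.16 and -1.93. For Eef1a1, a translation elongation factor, and S100a6, a calcium-binding protein, the differences of -2.53 and -2.55 in CF-1 stood alone: 3 further probe sets for Eef1a1 had -0.44, 0.56 and -0.45, and 1 for S100a6 had 0.52.

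In the hybrid, a few luteal genes were lower at 5 months. The reverse rule, at least 3-fold in the hybrid and under 1.5-fold in CF-1, took 36 probe sets (0.621%), 14 higher and 22 lower. In 20 of the 36 the hybrid array at 5 months was the farther from the CF-1 mean, and in 16 the one at 2 months. Among the lower genes were 3 of the corpus luteum list. Hsd3b1, which converts pregnenolone to progesterone, read 21960 and 22977 units in CF-1 and 16166 and 3612 in the hybrid, so that the hybrid ovary at 5 months was the low one of the 4. Cited1, a transcriptional cofactor, read 804 and 951 units in CF-1 and 2601 and 337 in the hybrid. Bhmt, a methyltransferase of homocysteine, read 1043 and 938 units in CF-1 and 4043 and 761 in the hybrid. For Cited1 and Bhmt the hybrid ovary at 2 months was the high one, and the other 3 read at most 1043 units. Hsd3b1 belongs to a family of close copies, and their share in its signal was not tested.

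Of 13 measured genes of 22, 9 were lower in the hybrid and 3 at least 2-fold, where 2.26% of all tested probe sets were, with a median of -0.38. In CF-1, 10 were higher with a median of 0.14. With quantile normalization the medians were -0.14 in the hybrid and 0.05 in CF-1. The chip B members Timp1, Cd81, Ldhb and Apoe, an apolipoprotein, had hybrid log2 differences of 0.02, 0, -0.17 and 0.13. The other members were read on chip A. A second probe set for Apoe, on chip A, was higher in both strains. It read 2657 and 7676 units in the hybrid and 10327 and 18800 in CF-1. Ribosomal protein genes had a hybrid median of -0.24. The part of chip type and scaling in the luteal values was not tested. Star, which carries cholesterol into mitochondria, read 17465 and 18850 units in CF-1 and 15776 and 11263 in the hybrid. Cyp11a1, which makes pregnenolone from cholesterol, read 20595 and 23730 units in CF-1 and 17624 and 13544 in the hybrid. Scarb1, the receptor for high-density lipoprotein, read 15378 and 21406 units in CF-1 and 12600 and 9442 in the hybrid. Ptgfr, the receptor through which prostaglandin F2 alpha ends luteal life, read 15874 and 13224 units in CF-1 and 10414 and 7952 in the hybrid, lower at 5 months in both. The theca enzyme Cyp17a1 was lower at 5 months in both strains by less than 2-fold, with 5773 and 3968 units in CF-1 and 6784 and 4373 in the hybrid.

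**Figure D5:**
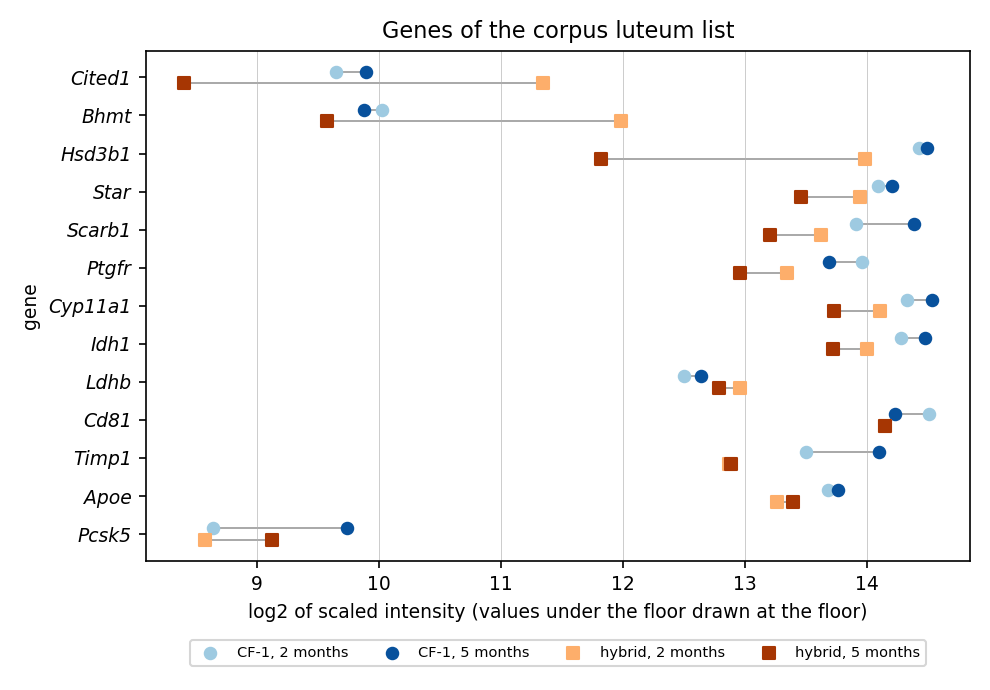
Each row is 1 of the 13 measured genes of the corpus luteum list, with the log2 scaled intensity of the 4 wild-type arrays (circles CF-1, squares hybrid, pale 2 months, dark 5 months). In Cited1, Bhmt and Hsd3b1 the dark hybrid square lies more than 2 log2 units left of the pale one, while the other members differ by at most 0.55 in the hybrid.

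Cholesterol genes were mixed. Of 11 measured genes of 24, 8 were higher in CF-1 with a median of 0.15, and 9 lower in the hybrid with a median of -0.21. Dhcr7, which makes the last step to cholesterol, was 2-fold higher in both strains, with 1806 and 4468 units in CF-1 and 512 and 1130 in the hybrid. Idi1, an isomerase of the same pathway, was lower in both, with 3361 and 2024 units in CF-1 and 4250 and 2522 in the hybrid. Sqle, squalene epoxidase, read 2661 and 1765 units in CF-1 and 2764 and 1343 in the hybrid. Lrp1, a receptor of lipoproteins, was 3.27-fold higher in CF-1 at 5 months, with 1990 and 6507 units, and read 2344 and 2117 units in the hybrid.

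Other named hybrid genes lower at 5 months were Saa3, an acute phase protein, with 1566 and 490 units beside 834 and 1206 in CF-1, Rxrb, a retinoid receptor, with 1153 and 122 units beside 781 and 1063, and Usf2, a helix-loop-helix factor, with 1581 and 383 units beside 1300 and 1606. Tlcd4 and Cdv3 had hybrid log2 differences of -2.27 and -1.97. Of the 7 named genes higher in the hybrid, Slc38a5, an amino acid transporter, read 701 and 3602 units in the hybrid and 4548 and 4487 in CF-1. Lcn2, an iron-scavenging acute phase protein, read 259 and 1273 units in the hybrid and 776 and 527 in CF-1, and a second probe set gave 884 and 2042 in the hybrid and 1221 and 1724 in CF-1. For Slc38a5, Pum2, Cyp2a12 and Cyb5r1 the hybrid ovary at 2 months was low and the 5-month one at the level of CF-1, with hybrid log2 differences of 2.36, 2.05, 1.59 and 1.74. Cyb5r4 and Fgfr1op2 had 1.88 and 1.77, and second probe sets for these had 0.13 and -0.11.

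Differences of 2-fold in opposite directions were found for 28 probe sets (0.483%), 18 with 1 gene symbol. Ptgds, which makes prostaglandin D2, read 61 and 773 units in CF-1 and 669 and 77 in the hybrid, by at least 4.20-fold upward in CF-1 and 3.64-fold downward in the hybrid. Adam15, a membrane metalloprotease, read 259 and 950 units in CF-1 and 438 and -114 in the hybrid. Slc25a33, a mitochondrial nucleotide carrier, read 98 and 694 units in CF-1 and 386 and 188 in the hybrid. Mphosph9, a centrosomal protein, went the same ways, and Ddx46, a splicing helicase, was lower in CF-1 and higher in the hybrid, with 551 and 265 units and 181 and 639 units. All 5 named genes have an array under the floor, and with the floor doubled 4 of the 28 probe sets were left.

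The fibroblast matrix list (28 measured of 35), which holds Vcan, had medians of -0.17 and 0.07. In CF-1, 3 members were at least 2-fold lower, where 6.09% of all tested probe sets were. Postn, periostin, was its largest CF-1 difference, with 1107 and 349 units, and 927 and 748 in the hybrid. Fn1, fibronectin, read 2457 and 1077 units in CF-1 and 2418 and 1829 in the hybrid. The endothelium list (8 of 21) had medians of 0.26 and 0.11 with no member 2-fold apart. The erythroid list (7 of 17) had 0.21 and 0.13, and the ribosomal protein list (34 of 75) 0.04 and -0.24. In CF-1 the ribosomal members on chip A were mostly higher and those on chip B lower. In the hybrid it was mostly the reverse. Rplp0 had log2 differences of 0.56 in CF-1 and -0.33 in the hybrid on chip A. Its brightest probe set on chip B had -0.35 and 0.03. The part of the chip type and of its scaling was not tested. The matrix protease and inhibitor list (15 of 23) had a median of 0.02 in both strains. Oxidative defence genes (23 of 34) had 0.17 and -0.10, with Gsta3, a glutathione transferase, at 616 and 2052 units in CF-1 and 760 and 823 in the hybrid. Txn1, thioredoxin, was low in the hybrid at 2 months, with 4023 and 10113 units, beside 10142 and 11889 in CF-1.

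The steroidogenesis list (10 measured of 20) had medians of 0.09 in CF-1 and -0.08 in the hybrid. Nr5a1, the nuclear receptor SF-1 that drives steroid enzymes, was higher in both strains by less than 2-fold, with 3039 and 5080 units in CF-1 and 3528 and 4880 in the hybrid. Hsd17b4, a peroxisomal dehydrogenase, read 2088 and 1024 units in CF-1 and 1646 and 2402 in the hybrid. The ovulatory response list (6 of 19) had -0.22 and 0.05, with the matrix protease Adamts1 at 396 and 802 units in the hybrid and 513 and 402 in CF-1. The TGF-beta family list (18 of 35) had -0.17 and 0.06, and no member was 2-fold apart in CF-1. The Wnt pathway list (6 of 25) had 0.39 and -0.04.

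Acute phase and stress genes were uneven. The complement and acute phase list (10 of 20) had medians of 0.53 and 0.18. Ceruloplasmin, Cp, was higher in both strains, with 1568 and 2704 units in CF-1 and 718 and 1495 in the hybrid. Haptoglobin, Hp, was lower in both, with 1255 and 734 units in CF-1 and 2216 and 1066 in the hybrid, and so was the lipopolysaccharide-binding protein Lbp, with 2618 and 1980 units in CF-1 and 2963 and 1571 in the hybrid. The immediate early and heat shock list (20 of 28) had -0.17 and -0.34. In the hybrid 16 of its 20 members were lower, where 52.4% of all tested probe sets were higher. Egr1, an early response factor, was 2.10-fold higher in CF-1 at 5 months, with 1588 and 3338 units, and read 1922 and 1955 units in the hybrid. The Hsp90aa1 chaperone read 12300 and 6411 units in CF-1 and 12484 and 9861 in the hybrid, lower at 5 months in both.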

How the data were processed

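The deposited values are linear intensities of the authors, and the way they were computed is not stated in the labels or file headers. Each chip type was scaled over its 9 arrays to a common trimmed mean (2nd to 98th percentile), which had differed before scaling. On chip A the factors at 2 and 5 months were 0.969 and 1.36 in CF-1 and 0.841 and 0.703 in the hybrid. On chip B they were 1.241 and 0.895 in CF-1 and 0.86 and 0.998 in the hybrid. The factors thus changed with age in opposite ways between the strains and between the chip types. Their part in small differences of bright genes was not tested. The floor was set from the low end of the arrays, values were raised to it and taken to log2. Fold changes understate low probe sets and are bounds ("at least") where an array was under the floor. Genes were named from the platform annotation, updated by gene number through RefSeq gene models, and 7544 of 7561 entries with 1 symbol matched. A list used the brightest tested probe set of a gene.

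Age was fitted with strain as a block in limma 3.58.1 (R 4.3.3), with Benjamini-Hochberg adjustment over both chip types. The same steps were run on simulated data with equal changes in both strains, independent noise and levels above the floor. These arrays differ from that in each respect, so the run does not tell how the fit does on them. Differences within a strain followed rules of size. The named genes were those with the largest smaller difference of the strains (12 on either side), the largest strain gap (8 on either side per strain, 5 for opposite directions), the 10 lowest limma p, and for lists the 4 largest mean differences and the first 3 defining members. Further members were named after their values were seen. The comparison, rules and lists were chosen with earlier results of these data known. Replicate numbers pair no samples. Normalization, floor, filter and thresholds were varied.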

Additional observations from a re-analysis of the deposited data

Results flagged for a closer look

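The 28 probe sets at least 2-fold apart in opposite directions drew attention because the strains went opposite ways with age. The log2 difference in CF-1 minus that in the hybrid was 3.94 for Ptgds, 3.13 for Adam15, 3.06 for Mphosph9, 2.96 for Slc25a33 and -2.85 for Ddx46. With 1 array per strain and age, the difference between the strains was not tested.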

How the results depend on the processing

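With the floor doubled, 18 probe sets were 2-fold higher and 7 lower in both strains, 46 were 3-fold apart in CF-1 alone, 15 in the hybrid alone and 4 in opposite directions. At 1.5-fold, 163 were higher and 91 lower in both strains, and at 3-fold 2 and 3. At 2-fold in one strain, with a lower limit for the other, 326 were apart in CF-1 and 70 in the hybrid. Quantile normalization, median scaling, the halved floor and both looser filters kept these counts within 1.5 times. Without a filter, genes at the floor on both sides enter as 0, and the CF-1 list medians became -0.49 for oocyte, 0.96 for macrophage, 0.82 for adipocyte, and 0 for plasma cell and B cell, mast cell, interferon response, bursa and muscle, and Wnt genes. Detection on 1 array gave -1.09 for oocyte genes in CF-1 and -0.25 for granulocyte genes in the hybrid. In CF-1 the doubled floor gave -1.16 for oocyte, -0.43 for proliferation and -0.04 for bursa and muscle genes, the halved floor -2.10 for oocyte genes, and quantile normalization -0.04 for theca genes. The other list medians moved by less than 0.25. limma called 0 probe sets under every alternative run, with 156 to 893 at an unadjusted p under 0.05, the 893 without a filter. No fit without 1 of the 4 wild-type conditions could be made in the 4-array design, which leaves no residual degrees of freedom, so conditions were left out of a fit of 8 untreated arrays. No paired analysis by replicate was possible because each condition had 1 array per chip type; strain was the block. Of the named gene differences, none changed sign, and 36 of 89 fell under their threshold with the floor doubled. The median difference over all probe sets was -0.05 in CF-1 under all 3 scalings, and 0.02, -0.01 and -0.02 in the hybrid. Animals, cycle stage, dissection and the handling of the arrays cannot be told apart from age with 1 sample per condition.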
